A study of Drosophila melanogaster with 12 samples.

Results

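The effect of a high-sugar diet that adult male flies share after short and long feeding was measured over 12 whole-animal arrays. All 6 arrays of high-sugar flies were set against all 6 arrays of control flies as the mean of 2 diet differences, one taken at 2 days and one at 4 weeks, so that feeding time itself drops out. No array of the series was left out. The array names 11982 genes by a probe set with exactly 1 gene symbol, and 10418 of them were bright enough to be tested and are described here.

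Each of the 4 groups held 3 arrays, labelled as biological replicates: flies on the high-sugar diet (HS) for 2 days, flies on the control diet for 2 days, flies on HS for 4 weeks and flies on the control diet for 4 weeks. All were *Drosophila melanogaster* males of the wild-type strain Canton-S, kept in vials of one sex, and no allele, transgene or drug is named in the labels. Feeding began at 3 to 5 days of age, so the flies were 5 to 7 days old at 2 days and 31 to 33 days old at 4 weeks. The labels refer to an earlier publication for the diets, and neither the sugar content nor the number of flies behind an array is given in the sources used here. RNA came from homogenized whole animals, so for every gene below fewer cells of a type and less RNA per cell cannot be told apart.

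A fly that eats sugar digests it in the midgut with amylases and maltases, and the sugar that enters its cells is sensed by the transcription factor pair of Mondo and bigmax, which raises the transcription of further regulators such as the zinc finger genes *sug* (sugarbabe) and *cbt* (cabut) and the activin-like hormone gene *daw* (dawdle). Surplus sugar is turned into glycogen and fat, mainly in the fat body. One-carbon metabolism, which passes single carbon units from serine and glycine to folate, supplies carbon for purine synthesis and for the methyl groups of the methionine cycle.

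The deposited intensities had array medians between 86.97 and 93.42, and arrays of one group correlated across genes with Pearson's r of 0.984 to 0.993. The leading principal component held 53.4% of the variance and parted the feeding times, and the next held 13.8% and ran with diet: all 6 HS arrays lay below 0 on it and all 6 control arrays above. The precision is limited by the number of arrays, and the median standard error was 0.0929 (log2) for the mean diet effect, against 0.131 for the diet difference at one time. No scan date or other processing batch is given, so feeding time, age and any processing day cannot be told apart, and whether diets were processed together is not stated.

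Over both times more genes passed lower than higher on HS after adjustment. Of 10418 genes, 273 passed limma's test of the mean diet effect at a Benjamini-Hochberg adjusted p under 0.05 (2.62%), with 93 higher (0.893%) and 180 lower on HS (1.73%). An unadjusted p under 0.05 was reached by 2057 genes, 1075 of them higher (10.3%) and 982 lower (9.43%). Without adjustment the higher genes were thus the more numerous, and the lean to lower genes depends on the threshold. The lower genes also differed more in size: at least 1.5-fold changes were reached by 77 lower and 20 higher genes, and at least 2-fold changes by 25 and 7. The median log2 difference, HS minus control, was 0.42 over the higher genes and -0.53 over the lower genes, against 2.23e-05 over all genes tested. The genes that passed were brighter than the rest, with a median log2 intensity of 9.27 for the higher and 10.2 for the lower genes, against 8.04 over all genes tested. The count of higher genes depended on single arrays: it ran from 39 without HS array 2 at 4 weeks to 158 without control array 2 at 4 weeks, and that of lower genes from 113 to 218 without the same arrays.

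**Figure D1:**
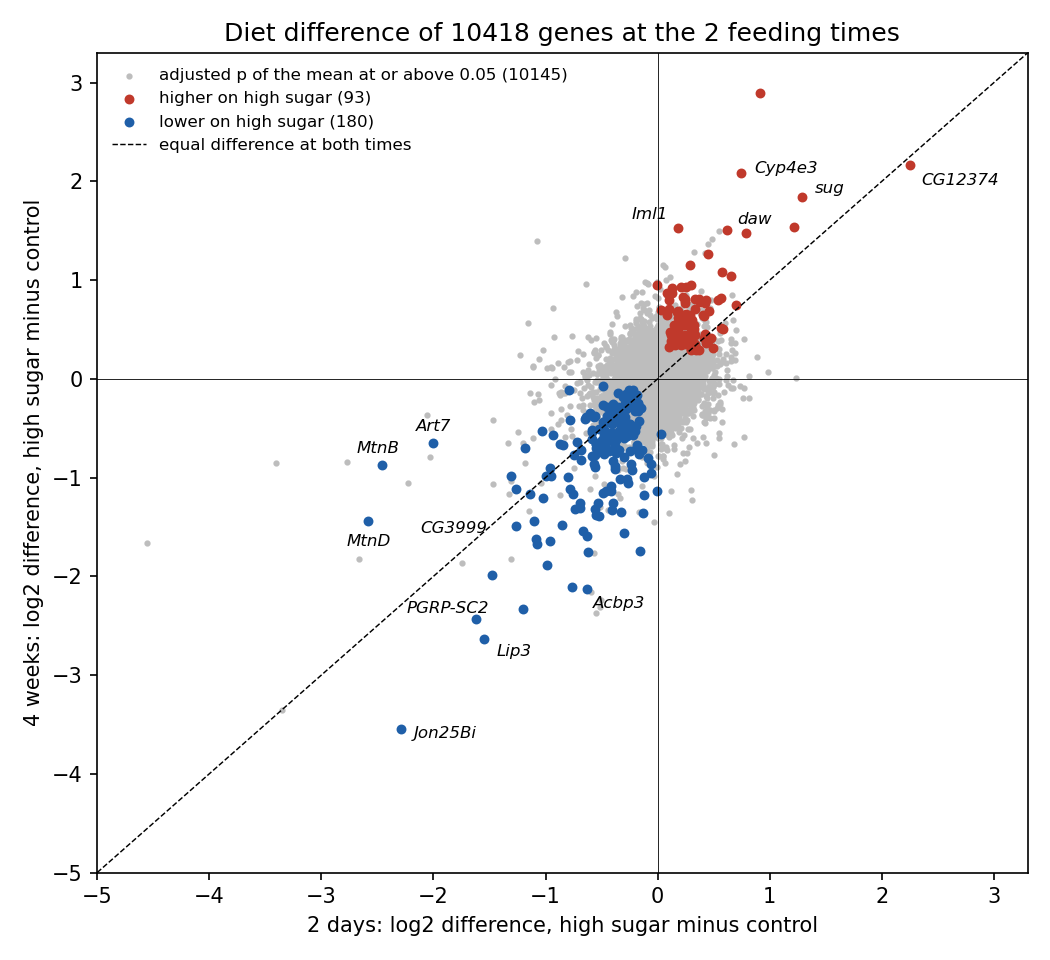
Log2 difference between HS and control at 2 days (x axis) and at 4 weeks (y axis) for the 10418 genes tested. Red points are the 93 genes higher and blue points the 180 genes lower for the mean of both times by limma, grey points did not pass, and the dashed line marks equal differences. All but 2 of the coloured points lie in the lower left and upper right quadrants, and most lie on the 4-week side of the line.

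The number of genes that passed was unequal at the single times. At 2 days alone 15 genes passed by limma, all lower (0.144%), and at 4 weeks alone 201 passed, 84 higher and 117 lower (1.93%). The 8 genes that passed at both times made up 53.3% of the 2-day calls and 3.98% of the 4-week calls. Of the 273 genes of the mean effect, 14 also passed at 2 days and 155 at 4 weeks, while 112 passed at neither time alone (38 higher, 74 lower). For 271 of the 273 the difference had the same sign at both times, and for all genes tested the share with the same sign was 61.2%. The mean effect uses both differences, so this count describes the genes that passed and is no separate test. The exceptions were the fatty acid synthase gene *FASN3*, with 0.03 at 2 days and -0.56 at 4 weeks, and CG13841, with -0.00 and 0.96.

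The size was larger at 4 weeks for 80 of the 93 higher genes and for 127 of the 180 lower genes. The same share over all genes tested was not counted, so this is not shown to be particular to these genes. The median of the higher genes was 0.29 at 2 days and 0.59 at 4 weeks, and that of the lower genes was -0.42 and -0.65. The test of the difference between the times, limma's interaction of diet and time, called 0 of 10418 genes (0%; smallest adjusted p = 0.0962, shared by *Iml1* and *Acbp3*), and 757 had an unadjusted p under 0.05 (7.27%). Among the 273 genes that unadjusted count was 78 (28.6%). The median standard error of this difference was 0.186, so small inequalities between the times were not detectable here. A stricter question, a difference at each time on its own, was asked with the larger of the 2 limma p-values of a gene whose signs matched: 0 genes passed after adjustment (0%; smallest adjusted p = 0.108), and 298 had a larger p under 0.05 without it (2.86%), 114 higher (1.09%) and 184 lower (1.77%). Of the genes of the mean effect, 54 of the 93 that were higher and 139 of the 180 that were lower were among them. The mean effect rests on the same 2 differences, so this overlap is no separate test either.

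The arrays were also compared without a model. At both times the 3 HS arrays lay wholly above or wholly below the 3 control arrays, in the same direction, for 401 genes (3.85%), of which 216 were higher (2.07%) and 185 lower (1.78%). Of the genes of the mean effect, 54 of the 93 that were higher and 116 of the 180 that were lower were separated in this way. Those genes were selected on the same arrays, so their separation describes them and is no separate test. The differences at 2 days and at 4 weeks share no array, and over the 10418 genes they correlated with Pearson's r = 0.42 and Spearman's rho = 0.32. With the genes split at their median brightness, r was 0.51 in the brighter and 0.34 in the dimmer genes. Genes are not independent replicates, so these correlations are descriptions.

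Some regulators of the sugar response rose. Of 8 measured genes of this list, 3 passed higher, 1 passed lower and 4 did not pass, with a median of 0.17. Over all genes tested 0.893% passed higher and 1.73% lower. The zinc finger gene *sug* (gene 36424) had intensities of 988, 398 and 688 on HS and 192, 325 and 296 on the control diet at 2 days. At 4 weeks it had 1146, 1049 and 888 on HS and 202, 488 and 237 on control. The HS arrays lay above the control arrays at each time, although HS array 2 at 2 days, at 398, came close to the highest control array. The mean effect of *sug* was 1.57 (log2; SE 0.24, 95% interval 1.04 to 2.09, limma adjusted p = 0.00428), a 2.96-fold higher level on HS, with 1.29 at 2 days and 1.84 at 4 weeks.

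The hormone gene *daw* (gene 33474) had 339, 292 and 377 on HS and 202, 257 and 201 on control at 2 days, and 506, 667 and 552 on HS and 196, 226 and 183 on control at 4 weeks. Again no HS array overlapped the control arrays of its time. For *daw* the mean effect came to 1.06 (SE 0.10, limma adjusted p = 0.000261), with 0.61 at 2 days and 1.51 at 4 weeks. The repressor gene *cbt* was higher by 0.40 (adjusted p = 0.0131), with 0.19 at 2 days, where the arrays overlapped, and 0.62 at 4 weeks. The lower member was *tobi*, a glycosidase gene under the control of insulin-producing cells, at -0.21. Its call was lost in 12 of 26 alternatives. *Mondo* (-0.16), *bigmax* (0.14), *Hnf4* (0.20) and *ERR* (0.09) did not pass.

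Among genes outside this list the rises were led by CG12374 (gene 36410). Its intensities were 1936, 1808 and 3198 on HS and 881, 188 and 620 on control at 2 days, and 384, 578 and 192 on HS and 46.8, 163 and 61.3 on control at 4 weeks. The level was far lower at 4 weeks than at 2 days on either diet, and within each time all HS arrays lay above all control arrays. The mean effect of CG12374 was 2.21 (SE 0.40, 95% interval 1.34 to 3.08, limma adjusted p = 0.0124) with near-equal parts of 2.26 and 2.17. It did not pass with no filter on dim probe sets or with robust estimation (adjusted p up to 0.0591).

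Other large rises included the cytochrome P450 gene *Cyp4e3* (1.42), CG3348 (1.38), the cyclic nucleotide-gated channel subunit gene *CngB* (1.13), CG13912 (0.86), *Iml1* (0.86), the ornithine decarboxylase gene *Odc1* (0.85), CG7720 (0.83), *Npc2h* (0.73) and the Snail-type factor gene *Kah* (0.72). *Odc1*, whose enzyme opens polyamine synthesis, had 975, 1047 and 922 on HS and 598, 670 and 599 on control at 2 days, and 715, 967 and 944 on HS and 367, 369 and 553 on control at 4 weeks. These groups did not overlap at either time. *Cyp4e3* overlapped at 2 days (225, 221 and 745 on HS, 130, 311 and 193 on control) and lost its call in 14 of 26 alternatives. The second probe set of CG7720 gave 0.16 and did not pass. CG12057, with a fitted difference of 1.90, lay at the floor of 11.78 in 2 of 3 control arrays at 4 weeks and is not ranked.

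*Iml1* encodes a subunit of the GATOR1 complex, which restrains the growth kinase TORC1 when amino acids are scarce. It had 307, 335 and 334 on HS and 284, 285 and 291 on control at 2 days, and 894, 733 and 871 on HS and 288, 229 and 360 on control at 4 weeks. The groups separated at both times, yet the difference was 0.18 at 2 days and 1.53 at 4 weeks, so most of its mean effect (0.86, SE 0.10, limma adjusted p = 0.000842) came from 4 weeks; the test of the difference between the times gave an adjusted p of 0.0962. Of 13 genes of TORC1 nutrient sensing *Iml1* alone passed, against 0.893% of all genes tested that passed higher, and the median of the list was 0.07. The count was 2 without control array 2 at 2 days, without HS array 1 at 4 weeks and with array weights.

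**Figure D2:**
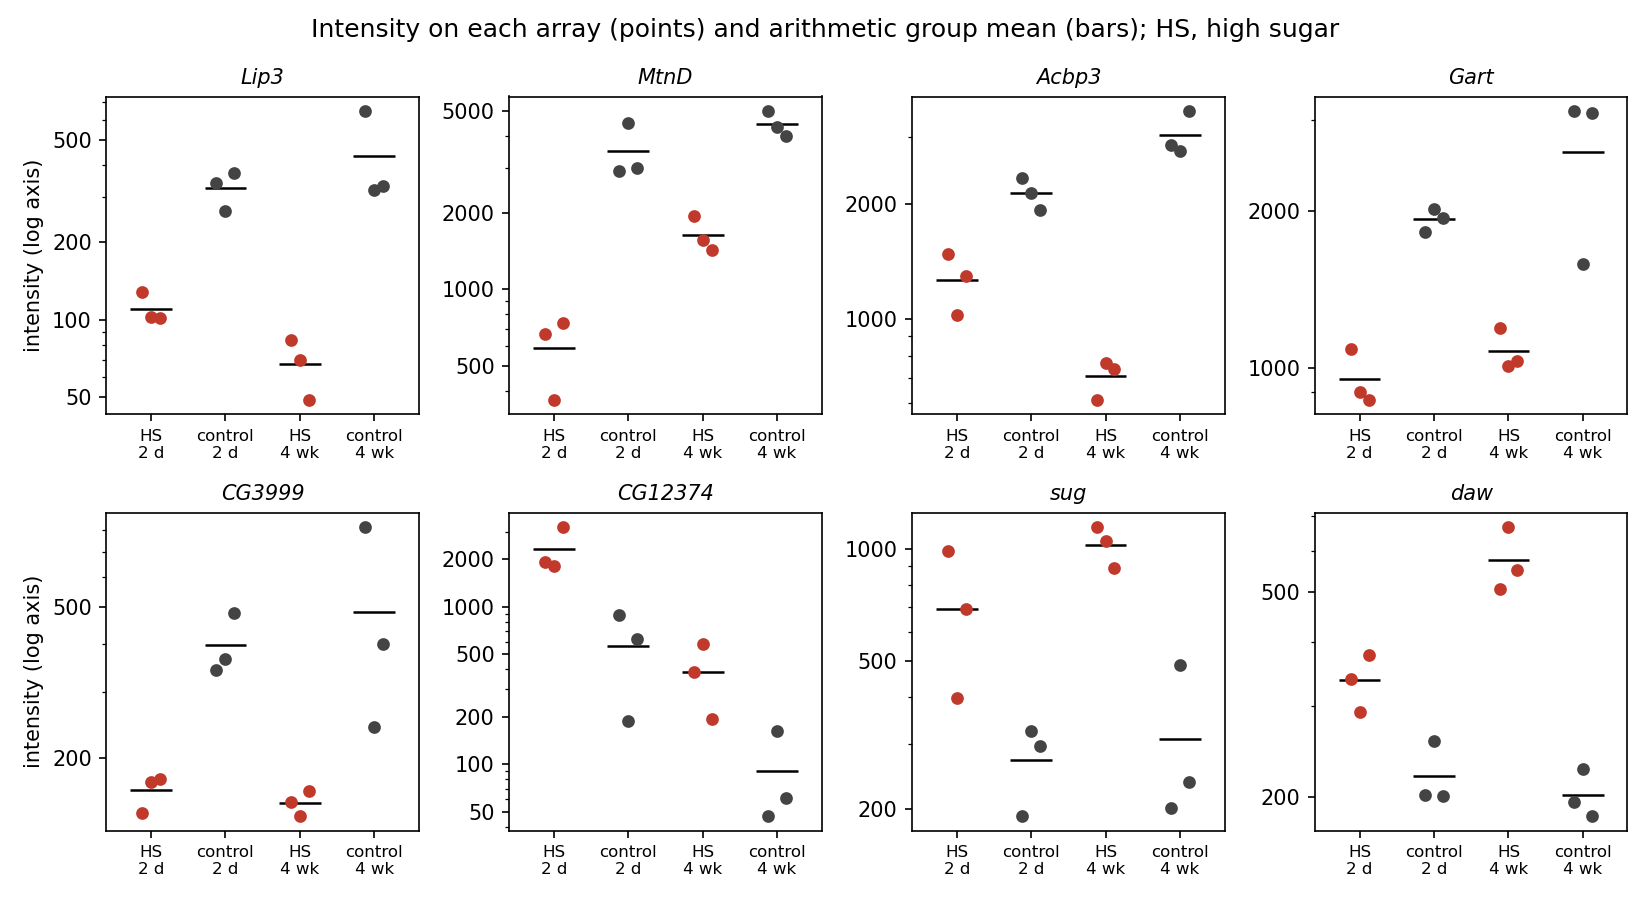
Intensity of 8 genes on each of the 12 arrays (points, log axis) with the arithmetic mean of each group (bars), in the order HS 2 days, control 2 days, HS 4 weeks, control 4 weeks. For *Lip3*, *MtnD*, *Acbp3*, *Gart* and CG3999 the 3 HS arrays lie below the 3 control arrays at each time, and for CG12374, *sug* and *daw* above them.

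Some genes of gut digestive enzymes fell. Of 12 genes of carbohydrate digestion, 0 passed higher, 7 passed lower and 5 did not pass, with a median of -0.32. Of the 12, 6 were lower without overlap at both times. Over all genes tested 1.73% passed lower and 1.78% were lower without overlap at both times. *Amyrel*, an amylase-related gene, had 463, 459 and 277 on HS and 721, 675 and 1209 on control at 2 days, and 180, 202 and 151 on HS and 426, 563 and 455 on control at 4 weeks. All HS arrays lay below the control arrays of their time. Its mean effect was -1.27 (SE 0.17, limma adjusted p = 0.00164), a level 2.42-fold higher on control. The maltase genes *Mal-A3* (-1.19), *Mal-A4* (-0.99), *Mal-A2* (-0.60), *Mal-A7* (-0.35) and *Mal-A6* (-0.20), whose enzymes split maltose and sucrose, fell too. *Mal-A1*, the brightest of the cluster at intensities of 9871 to 12486, had -0.12 and did not pass. The count of 7 dropped to 4 without control array 2 at 2 days or without HS array 2 or 3 at 4 weeks, and to 2 with no filter.

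Of 24 digestive serine protease genes, 0 passed higher, 5 passed lower and 19 did not pass, with a median of -0.30. The share that passed lower over all genes tested was 1.73%. *Jon25Bi* (gene 33708), a Jonah-type gut protease, had the lowest value of all genes that passed. Its intensities were 294, 249 and 192 on HS and 2967, 423 and 1319 on control at 2 days, and 275, 175 and 67.6 on HS and 1895, 2157 and 1279 on control at 4 weeks. The control arrays spread widely at 2 days, and the lowest of them, 423, still lay above every HS array. The fall averaged -2.92 (SE 0.42, 95% interval -3.82 to -2.02, limma adjusted p = 0.00255), a level 7.57-fold higher on control. Its neighbour *Jon25Bii* had -2.03, with control array 2 at 2 days (237) inside the range of the HS arrays, and lost its call in 8 of 26 alternatives. The others were *epsilonTry* (-0.74), *Ser6* (-0.67) and *kappaTry* (-0.64). *epsilonTry* had -0.13 at 2 days and -1.35 at 4 weeks, and the test of that difference gave a limma adjusted p of 0.324. Without HS array 2 or without HS array 3 at 2 days the count was 3, and with no filter 2. The mean log2 intensity of the list was 9.71, 9.49 and 9.85 on HS and 10.3, 9.62 and 9.99 on control at 2 days, where the diets overlapped, and 9.73, 9.48 and 8.70 on HS and 9.92, 10.3 and 9.95 on control at 4 weeks. HS array 3 at 4 weeks lay apart from the other arrays, and without it the count was 4.

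Among 9 digestive lipase genes 3 passed lower and 0 higher, with a median of -0.35, and over all genes tested 1.73% passed lower. *Lip3* (gene 41643) had 128, 103 and 101 on HS and 342, 265 and 373 on control at 2 days, and 83.9, 69.9 and 49 on HS and 649, 319 and 333 on control at 4 weeks. The groups stood well apart at both times. Averaged over the times the difference was -2.09 (SE 0.18, limma adjusted p = 0.000118), with -1.55 at 2 days and -2.63 at 4 weeks, a 4.27-fold higher level on control. The lipase genes CG6271 (-1.43) and CG8093 (-1.11) fell as well. The mean log2 intensity of the lipase list at 4 weeks was 8.61, 8.37 and 7.70 on HS and 8.98, 9.34 and 8.82 on control. HS array 3 at 4 weeks again had the lowest value, and without it the count was still 3.

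Not every gut list was lower. Of 3 gut lysozyme genes, whose products digest bacteria, 0 passed by limma and 1 was higher at an unadjusted p under 0.05: *LysX* had 1.02, *LysP* 0.33 and *LysS* -0.26. The summed intensity of the lysozyme list was 1280 to 1940 on HS and 1200 to 1720 on control at 2 days, and 1890 to 2690 on HS and 994 to 1840 on control at 4 weeks. That of the protease list was 75200 to 80000 on HS and 75100 to 91400 on control at 2 days, and 53900 to 68500 on HS and 75100 to 91800 on control at 4 weeks. For the lipase list it was 13000 to 14200 on HS and 12600 to 18900 on control at 2 days, and 5640 to 12300 on HS and 13200 to 18600 on control at 4 weeks. At 2 days the diets overlapped in all 3 sums. The summed intensity of the carbohydrate digestion list was 45400 to 54000 on HS and 60300 to 61700 on control at 2 days, and 47800 to 54700 on HS and 60900 to 66100 on control at 4 weeks. These last sums did not overlap at either time. The part of gut tissue in these differences was not tested.

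Of 4 measured metallothionein genes, which encode small metal-binding proteins, 2 passed lower. They were the only calls among the 13 tested genes of the list of metallothioneins and zinc transporters. Among all genes tested 1.73% passed lower. *MtnD* (gene 326270) had 665, 369 and 738 on HS and 2922, 4497 and 2992 on control at 2 days, and 1930, 1556 and 1421 on HS and 5002, 4317 and 3980 on control at 4 weeks. No arrays overlapped, and the gap was wider at 2 days. The mean difference was -2.02 (SE 0.17, limma adjusted p = 9.3e-05), with -2.59 at 2 days and -1.44 at 4 weeks. *MtnB* had a mean of -1.67 with -2.46 and -0.88. In both the 2-day difference exceeded the 4-week one, and the test of that inequality gave limma adjusted p-values of 0.617 for *MtnD* and 0.542 for *MtnB*. *MtnC* (-0.64) and *MtnA* (-0.03) did not pass, and neither did the 8 zinc transporters nor the metal-sensing factor *MTF-1* (-0.07).

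**Figure D3:**
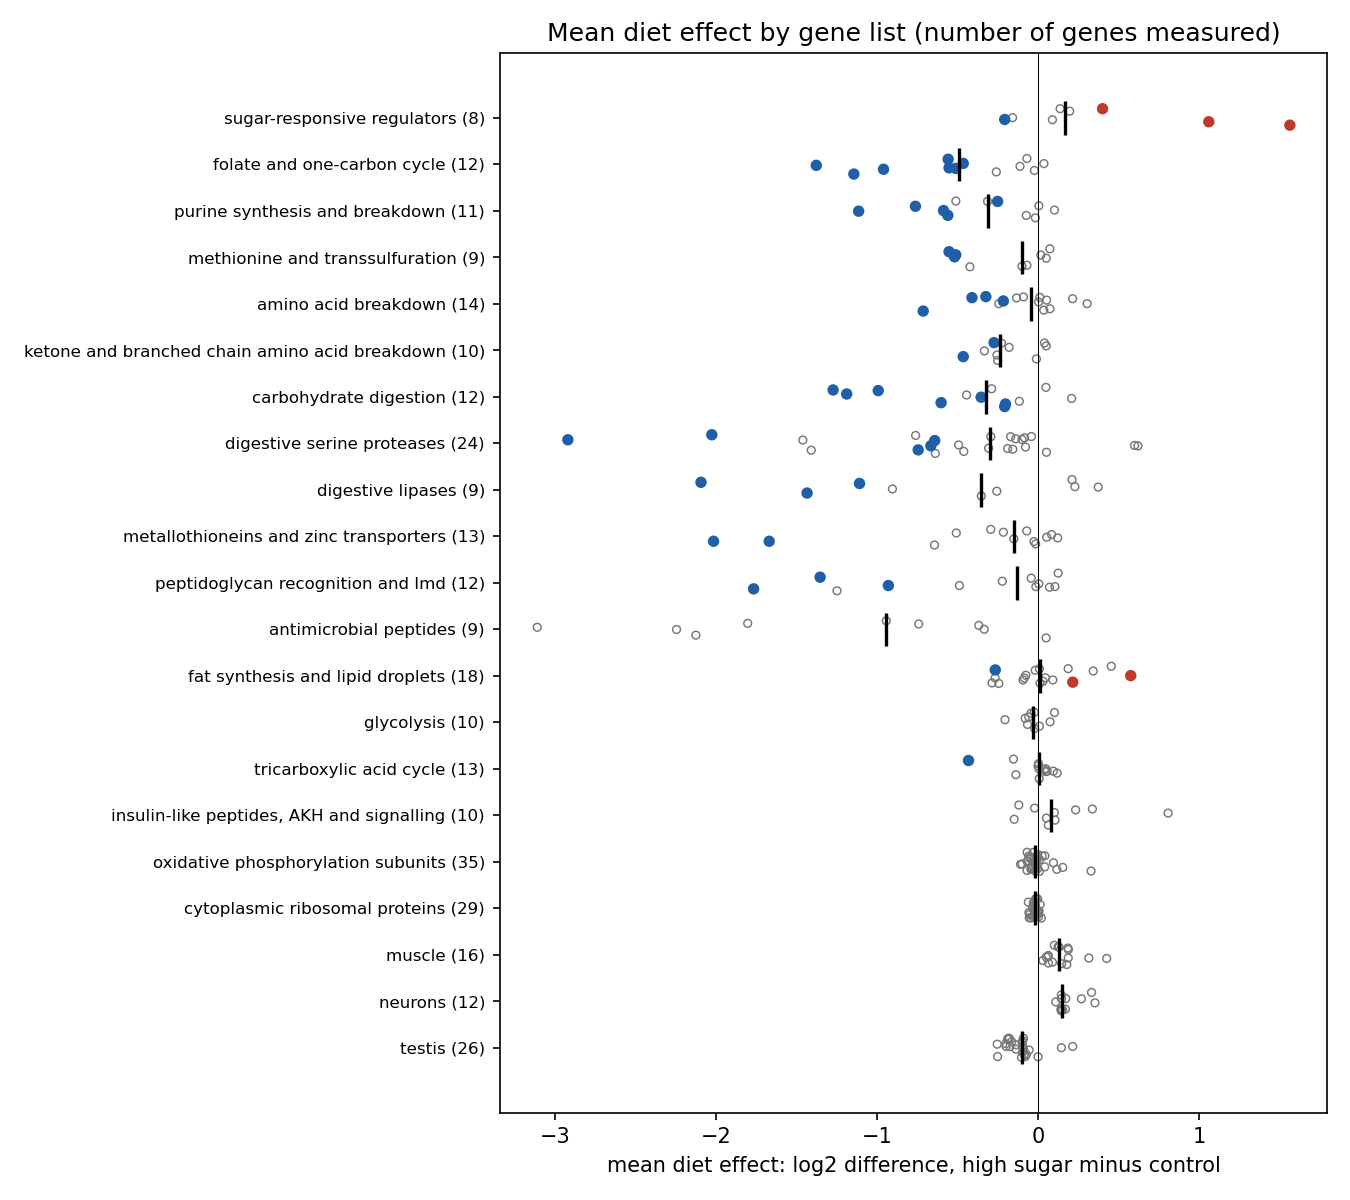
Mean diet effect (x axis, log2 difference, HS minus control) of each measured gene of 21 lists, with the number of genes measured in parentheses. Red and blue points passed limma's test, open points did not, and the vertical bar is the median of the list; the one-carbon and purine lists have medians of -0.49 and -0.31, while the glycolysis, ribosomal and oxidative phosphorylation lists lie close to 0.

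Transcripts of some one-carbon enzymes fell. Of 12 measured genes of the folate and one-carbon list, 0 passed higher, 7 passed lower and 5 did not pass. Over all genes tested 1.73% passed lower. The list had a median of -0.49 for the mean effect, -0.53 at 2 days and -0.38 at 4 weeks. One of the 12, *Acsf3*, is an acyl-CoA synthetase gene that entered the list through an old symbol and has no role in this pathway. CG3999 (gene 41253), the glycine dehydrogenase of the glycine cleavage system, had 144, 174 and 176 on HS and 342, 365 and 485 on control at 2 days, and 153, 141 and 163 on HS and 815, 242 and 401 on control at 4 weeks. All HS arrays lay below all control arrays. The mean effect was -1.38 (SE 0.22, 95% interval -1.85 to -0.90, limma adjusted p = 0.00512), with near-equal parts of -1.26 and -1.49.

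*Nmdmc*, a mitochondrial methylenetetrahydrofolate dehydrogenase, had a mean effect of -1.14, and *Sardh*, sarcosine dehydrogenase, one of -0.96. The cytosolic enzyme gene *pug*, which carries several steps of folate interconversion, had 3894, 3226 and 3086 on HS and 4749, 4979 and 4601 on control at 2 days, and 4231, 3858 and 3888 on HS and 6593, 5636 and 6194 on control at 4 weeks. These groups did not overlap, and its difference of -0.56 had a small error (SE 0.06, limma adjusted p = 0.000714). The other falls were those of the adenosylhomocysteinase gene *Ahcy* (-0.55), the glycine N-methyltransferase gene *Gnmt* (-0.51) and *Shmt* (-0.46), whose enzyme moves a carbon from serine to folate. The remaining glycine cleavage genes CG6415 (-0.26) and *ppl* (-0.11), the S-adenosylmethionine synthetase gene *Sam-S* (-0.07) and the thymidylate synthase gene *Ts* (0.04) did not pass. The count of 7 ran from 5 to 7 when single arrays were left out.

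Some genes of purine metabolism fell; the synthesis pathway uses folate-bound carbon at some of its steps. Of 11 genes of purine synthesis and breakdown, 0 passed higher, 5 passed lower and 6 did not pass, with a median of -0.31. The share that passed lower over all genes tested was 1.73%. *Gart* (gene 33986), a trifunctional enzyme of the pathway that includes one of those folate-dependent steps, had 1091, 900 and 870 on HS and 1825, 2024 and 1946 on control at 2 days, and 1196, 1009 and 1033 on HS and 3119, 1583 and 3090 on control at 4 weeks. No arrays overlapped. Over both times the difference was -1.11 (SE 0.15, limma adjusted p = 0.00164), with -1.02 at 2 days and -1.20 at 4 weeks, a 2.16-fold higher level on control. *Prat2*, the amidotransferase of the committed step, fell by 0.56 on the log2 scale (adjusted p = 0.000842), with -0.58 and -0.54.

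*Adsl* (-0.76) and *Paics* (-0.25) of the later steps fell, and so did *ry* (-0.59), xanthine dehydrogenase, which breaks purines down. *Pfas* had -0.51 and did not pass, and *Prat*, the other amidotransferase gene, had 0.01. *AMPdeam* (-0.02) and *Adss* (-0.07), which interconvert finished nucleotides, did not pass either. Without any one array the count was 5 or 6.

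**Figure D4:**
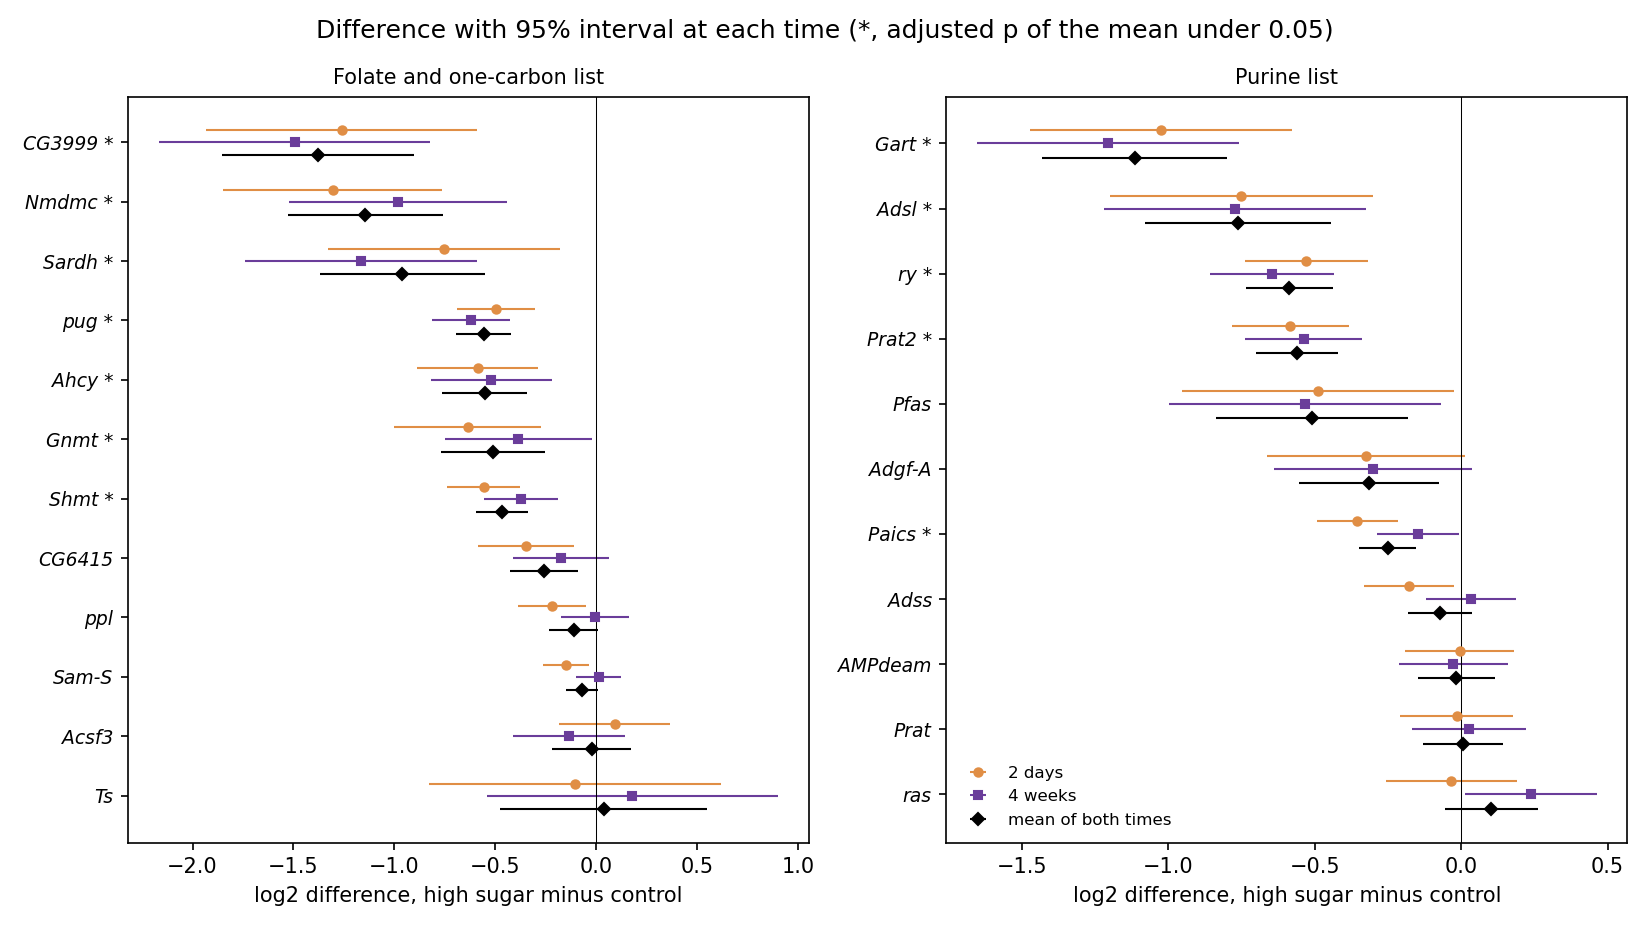
Log2 difference (HS minus control) with 95% interval at 2 days (orange circles), at 4 weeks (purple squares) and for the mean (black diamonds) of the 12 genes of the folate and one-carbon list and the 11 genes of the purine list. A star marks an adjusted p under 0.05 for the mean; the 12 starred genes lie below 0 at both times.

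Amino acid and ketone body breakdown showed smaller falls in part of each list. Of 14 genes of amino acid breakdown, 4 passed lower: the ornithine aminotransferase gene *Oat* (-0.71), the lysine-degrading enzyme gene *LKRSDH* (-0.41) and the aspartate aminotransferase genes *Got2* (-0.32) and *Got1* (-0.22). The median of the list was -0.04, and over all genes tested 1.73% passed lower. Of 9 genes of the methionine cycle and transsulfuration, 3 passed lower, *Ahcy* and *Gnmt* of the one-carbon list and the cystathionine gamma-lyase gene *Cth* (-0.52, SE 0.07). Of 10 genes of ketone body and branched chain amino acid breakdown, *SCOT* and *Dbct* passed lower, with a median of -0.24 for the list. *SCOT*, whose enzyme activates ketone bodies for use, had 1716, 1639 and 1542 on HS and 2283, 2154 and 2451 on control at 2 days, and 1918, 1747 and 1682 on HS and 2490, 2335 and 2407 on control at 4 weeks. The arrays stood apart at both times, with a mean effect of -0.46 (SE 0.06, limma adjusted p = 0.00146). *Dbct* (-0.27) lost its call without any one of 11 of the 12 arrays.

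Fat metabolism genes moved in both directions. Of 18 genes of fat synthesis and lipid droplets, *FASN2* (0.58) and the droplet protein gene *Lsd-2* (0.22) passed higher and *FASN3* (-0.27) lower, with a median of 0.01. *Lsd-2* lost its call in 17 of 26 alternatives and *FASN3* in 14. The shares over all genes tested were 0.893% higher and 1.73% lower. *FASN1* (0.01), *ACC* (-0.09) and the triglyceride lipase gene *bmm* (-0.27) did not pass. Of 11 genes listed under fatty acid oxidation, *Echs1* (-0.27) and CG9547 (-0.90) passed lower; CG9547 is the counterpart of a human enzyme of lysine and tryptophan breakdown rather than of beta-oxidation. Its intensities were 492, 477 and 552 on HS and 795, 829 and 1037 on control at 2 days, and 590, 526 and 497 on HS and 1222, 1074 and 928 on control at 4 weeks. The groups did not overlap.

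*Acbp3* (gene 38783), which encodes an acyl-CoA binding protein, had the smallest adjusted p of all genes tested. It had 1479, 1024 and 1294 on HS and 2335, 2139 and 1927 on control at 2 days, and 613, 765 and 738 on HS and 2847, 2759 and 3504 on control at 4 weeks. The gap between the diets was wide at both times and wider at 4 weeks. Its mean effect was -1.43 (SE 0.10, limma adjusted p = 3.26e-05), with -0.77 at 2 days and -2.10 at 4 weeks, an inequality with a limma adjusted p of 0.0962. *Acbp5* (-0.29) passed with it, and *Acbp1* (0.07), *Acbp2* (-0.10) and *Acbp6* (-0.39) did not. Among all genes tested 0.893% passed higher and 1.73% lower. Of 8 tested genes of Niemann-Pick sterol transport, whose products carry sterols or other lipids, 4 did not pass. The calls among the Niemann-Pick type 2 genes were split: *Npc2h* (0.73) and *Npc2g* (0.41) passed higher and *Npc2e* (-0.97) and *Npc2f* (-0.65) lower. All but *Npc2h* lost their call in 11 to 13 of 26 alternatives.

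Immune genes of the peptidoglycan response fell in part. Of 12 genes of peptidoglycan recognition and the Imd pathway, 3 passed lower and 0 higher, with a median of -0.13: the peptidoglycan-cleaving amidase genes *PGRP-SC2* and *PGRP-LB* (-0.93) and *pirk* (-1.35), all dampers of the pathway. The count was 5 without control array 2 at 4 weeks, and over all genes tested 1.73% passed lower. *PGRP-SC2* (gene 35862) had 479, 541 and 621 on HS and 2193, 872 and 1021 on control at 2 days, and 564, 452 and 298 on HS and 3399, 1448 and 1976 on control at 4 weeks. HS arrays lay below control arrays at both times, with a mean effect of -1.77 (SE 0.25, limma adjusted p = 0.00231). The 9 antimicrobial peptide genes, targets of the pathway, had a median of -0.94, and 0 passed by limma. At an unadjusted limma p under 0.05, 5 of the 9 were lower, against 9.43% of all genes tested. Their mean log2 intensity varied widely within the control groups, with 7.63, 7.29 and 7.21 on HS and 10.2, 9.14 and 7.60 on control at 2 days, and 8.99, 8.74 and 8.97 on HS and 10.5, 8.70 and 10.4 on control at 4 weeks.

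Part of each of 3 detoxification enzyme families passed, 9.21% of the cytochrome P450, 5.88% of the glutathione S-transferase and 4% of the UDP-glycosyltransferase genes, against 2.62% of all genes tested. The shares of the transferase families rest on 2 of 34 and 1 of 25 genes, so they do not stand out from all genes tested. Of 76 cytochrome P450 genes, 2 passed higher (*Cyp4e3* and *Cyp4e1*) and 5 lower, led by *Cyp12d1-d* (-0.68), *Cyp309a1* (-0.61) and *Cyp4s3* (-0.58), with a median of -0.02. The higher count was 0 without any one of 7 of the 12 arrays, and *Cyp4e1* lost its call in 15 of 26 alternatives. The lower count was 2 without control array 2 at 2 days or without HS array 2 at 4 weeks, and 3 without HS array 3 at 4 weeks. Of 34 glutathione S-transferase genes, *GstD5* (-0.75) and *GstE6* (-0.33) passed lower. *Ugt37B1* (-0.94) passed lower among 25 UDP-glycosyltransferase genes (2 without HS array 1 at 2 days or without control array 2 at 4 weeks), and *Obp56a* (-0.96) among 31 odorant-binding protein genes. The arginine methyltransferase gene *Art7* passed at -1.33, alone among 8 such genes, with 35.1, 29.6 and 33.3 on HS and 145, 91.7 and 168 on control at 2 days, and 158, 147 and 281 on HS and 315, 249 and 324 on control at 4 weeks. Its groups were separated at 2 days and overlapped at 4 weeks.

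Much of central carbon metabolism gave no call. Since 2.62% of all genes tested passed, a list of 10 to 35 genes without a call does not stand out from them. At an unadjusted limma p under 0.05, 10.3% of all genes tested were higher and 9.43% lower. By limma, 0 of 10 glycolysis genes passed, with 0 higher and 1 lower at an unadjusted p under 0.05, and the median was -0.03, or 0.02 after quantile normalization. Of 35 oxidative phosphorylation genes 0 passed (2 higher and 2 lower unadjusted), with a median of -0.02, or 0.04 after quantile normalization. Of 29 cytoplasmic ribosomal protein genes 0 passed (0 unadjusted), with values from -0.06 to 0.02. Of 10 genes of insulin and adipokinetic hormone signalling 0 passed (3 higher unadjusted); *Ilp2* had 0.06, and the adipokinetic hormone receptor gene *AkhR* had 0.81 with an adjusted p of 0.0703. *Pepck1* had -0.01, while its paralogue *Pepck2*, for a gluconeogenic enzyme, passed at 0.62 (limma adjusted p = 0.00404). In other sugar lists *Sodh1* (sorbitol dehydrogenase, -0.38), *Slc45-1* (a sucrose transporter, -0.50) and *Taldo* (transaldolase, -0.17) passed lower. In the tricarboxylic acid list it was *Men-b* (-0.44), a malic enzyme outside the cycle proper. Each was the only lower call of its list, and the lists held 16, 12, 5 and 13 tested genes in that order. *Taldo* lost its call in 14 of 26 alternatives, *Men-b* in 13 and *Slc45-1* in 7.

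Averaging over the times brought out 112 genes that passed at neither time alone. The named ones with the smallest adjusted p were CG12374, CG3348, *Kah*, the junctophilin gene *jp* (0.40) and the formin gene *Fhos* (0.41) among the higher genes. Among the lower genes they were *Nmdmc*, CG3592 (-0.76), the glycine C-acetyltransferase gene *Gcat* (-0.68), CG12171 (-0.36) and the galactokinase gene *Galk* (-0.36). *Galk* shows the pattern: it had 2930, 2747 and 2638 on HS and 3460, 3713 and 3579 on control at 2 days, and 3584, 3620 and 3180 on HS and 4922, 3959 and 4428 on control at 4 weeks. The arrays of the diets did not overlap at either time, the parts were -0.37 and -0.35, and only their mean passed (SE 0.06, limma adjusted p = 0.0076). *Gcat* had -0.72 at 2 days and -0.64 at 4 weeks. Genes of this kind were picked on the mean and for passing at neither time, so near-equal parts describe them and are no separate test. *Kah* did not pass when HS array 3 at 4 weeks was left out (adjusted p = 0.0564). *Fhos* did not pass without that array, without HS array 3 at 2 days or without control array 2 at 2 days, at adjusted p-values of 0.0564 or less, and its second probe set gave 0.34 and did not pass.

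**Figure D5:**
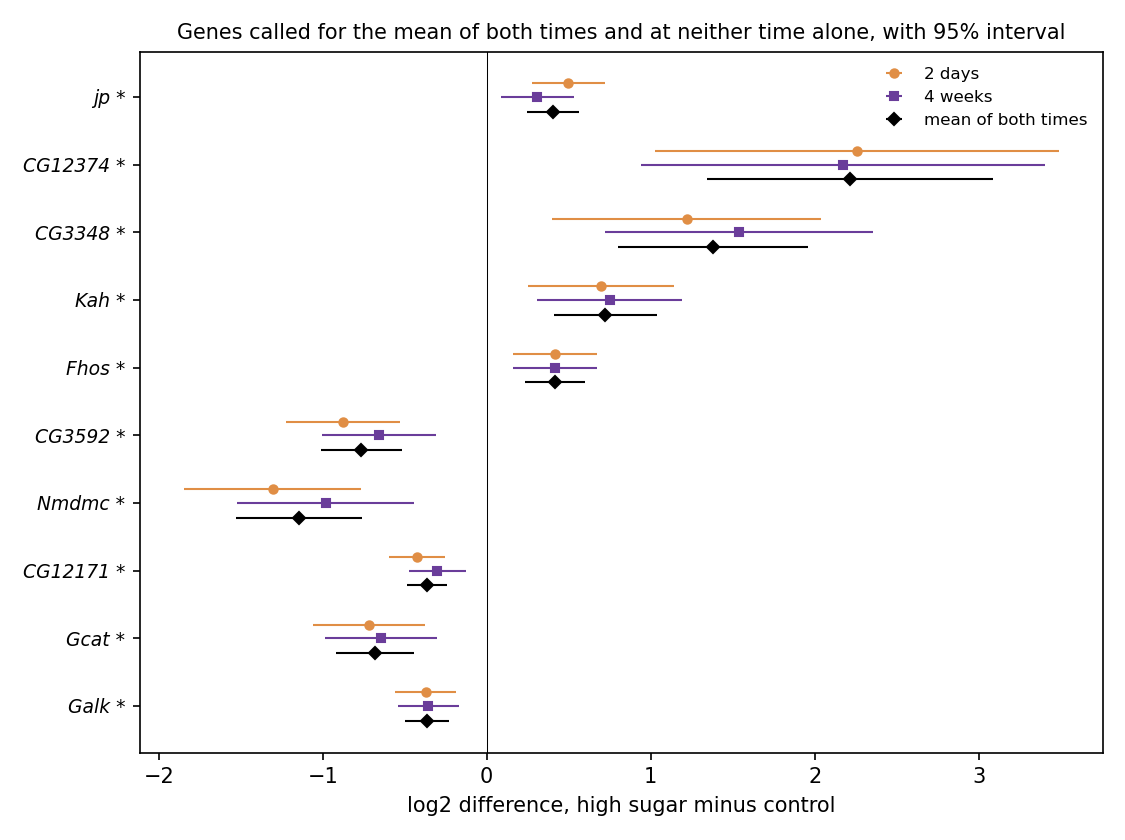
Log2 difference (HS minus control) with 95% interval at 2 days (orange circles), at 4 weeks (purple squares) and for the mean of both times (black diamonds) of 5 higher and 5 lower genes that passed for the mean and at neither time alone. The values at the 2 times lie close together for each gene, and the black interval is the narrowest and lies clear of 0. These genes were picked on the p-value of the mean and for passing at neither time. Such features follow in part from that choice and are no separate test.

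Lists of tissue markers differed by small amounts alongside these changes, and by limma none of their members passed except *Lsp2* (-0.80) of the fat body list and *Obp56a* of the odorant-binding protein list. *Lsp2* lost its call in 12 of 26 alternatives, 8 of them with a single array left out. All 12 neuronal genes, all 16 muscle genes and all 12 basement membrane genes had a positive mean effect, with medians of 0.15, 0.13 and 0.13, and 23 of 26 testis genes had a negative one, with a median of -0.10. Of 10 photoreceptor genes 7 were positive, with a median of 0.19. Over all genes tested 50% were positive. These shifts were larger at 4 weeks. The medians at 2 days and 4 weeks were 0.08 and 0.30 for neurons, 0.06 and 0.16 for muscle and 0.05 and 0.225 for basement membrane. They were 0.06 and 0.31 for photoreceptors and -0.04 and -0.17 for testis. The sign was the same at both times for 9 of 12 neuronal, 13 of 16 muscle and 8 of 12 basement membrane genes. It was so for 7 of 10 photoreceptor and 17 of 26 testis genes, against 61.2% of all genes tested. At an unadjusted p under 0.05 there were 4 higher neuronal, 3 higher muscle, 5 higher basement membrane and 5 higher photoreceptor genes, with 6 lower and 1 higher in the testis list. Over all genes tested 10.3% were higher and 9.43% lower at that p. After quantile normalization and after centring of the arrays there were again 12 positive neuronal, 16 muscle and 12 basement membrane genes, 8 and 7 positive photoreceptor genes, and 23 or 24 negative testis genes. The summed intensity of the neuronal list was 6730 to 7510 on HS and 6600 to 6960 on control at 2 days, and 5900 to 6290 on HS and 4410 to 5070 on control at 4 weeks. That of the testis list was 82200 to 91200 on HS and 87100 to 93400 on control at 2 days, and 60500 to 67700 on HS and 67200 to 73600 on control at 4 weeks. No defining marker of either list lay at the floor on all arrays of a group. The part of tissue makeup in the diet effect was not tested.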

How the data were processed

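Per the series text, the authors extracted and normalized the probe set values with dChip (2006 version), using perfect match and mismatch probes; the deposited values are linear intensities. Intensities below 11.78, the pooled 20th percentile, were raised to it, and log2 was taken. The 100 controls were left out, as were the dimmest 30% of the remaining probe sets (mean below log2 4.30). Of 18869 probe sets, 13647 had 1 gene symbol in the supplied annotation, 402 several and 4720 none; 13544 of the 13647 matched the reference gene table. The brightest probe set stood for a gene.

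The means of the 4 groups were fitted jointly with limma 3.58.1 in R 4.3.3 (lmFit, then eBayes with its trend option, on 8 residual and 5 prior degrees of freedom), with p-values adjusted by Benjamini-Hochberg over all 10418 genes. The p-values measure the spread between these arrays. Replicate numbers did not in general pair the arrays (correlations of same-numbered deviations from -0.199 to 0.144). Only replicate 2 at 4 weeks correlated more with its own number (0.134) than with any other (0.0244 at most). Lists are described by counts and medians, with no list test. The fit was tested on simulated data.

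The 49 gene lists, the genes and the alternatives were chosen with earlier results of these data known. The naming rule took the 12 highest and 12 lowest genes that passed with the same sign at both times, up to 5 each way that passed at neither time alone, up to 2 each way per list, and 14 genes whether or not they passed (*Ilp6* and *Thor* are not named on the array); a further class, for the difference between times, held no gene. Other genes were named after their values were seen. A planned motif search in promoters was not run, since no promoter sequences were used here. Alternatives varied the normalization, floor, filter, variance model, replicate block, probe set rule and fold threshold, or left out each array.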

Additional observations from a re-analysis of the deposited data

Results flagged for a closer look

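Probe sets without a single gene symbol were not part of the gene comparison and were tested apart with the same limma model. Of 1436 probe sets with no gene symbol, 12 passed for the mean diet effect (0.836%), 5 higher and 7 lower on HS. Of 350 probe sets that match several genes, 9 passed (2.57%), 1 higher and 8 lower. Among the named genes tested 2.62% passed, so neither share was above theirs. These probe sets stand here only because the comparison of named genes left them out.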

How the results depend on the processing

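Against 93 higher and 180 lower genes, the count of higher genes fell to 38 with the replicate number as a block within each time and to 20 at 1.5-fold or more, and that of lower genes to 108 with no filter and to 77 at 1.5-fold or more. In the other alternatives that kept all arrays the counts stayed within 1.5 times, among them the replicate block over both times (65 higher, 148 lower), quantile normalization (115 and 155) and centring on medians (79 and 216). Except for replicate 2 at 4 weeks, the replicate numbers did not pair the arrays, so a call lost under the block is not read as a smaller effect. Without single arrays higher genes ran from 39 to 158 and lower genes from 113 to 218. The higher count moved by over 1.5 times without control array 1 (55) or 2 (56) or HS array 1 (58) or 3 (44) at 2 days and without control array 2 (158) or 3 (61) or HS array 1 (53), 2 (39) or 3 (48) at 4 weeks, and the lower count without HS array 2 at 4 weeks (113). The cause was not tested.

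Calls for the difference between times were 1 with no filter and 0 to 3 without single arrays, and calls at both times 0 to 4 without single arrays. *Pepck1*, which did not pass, changed sign after quantile normalization (0.02289) and without array 2 of the control group at 2 days (0.006085), of the HS group at 2 days (0.009754) or of the control group at 4 weeks (0.01628); without single arrays it ran from -0.03469 to 0.01628. Of the 71 named genes that passed, 45 passed under all 26 alternatives other than the 1.5-fold threshold, 54 passed whichever array was left out, and 0 changed sign. List counts under the alternatives were added after seeing the data; those of the folate and purine lists moved by over 1.5 times only at 1.5-fold or more, to 3 each. The brightest probe sets may respond less than in proportion to RNA, and the floor compresses differences of dim genes.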

Other observations

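The genes in the next sentences lie outside the lists and the naming rule and were picked after their values were seen, so they say nothing of a pathway as a whole. Those that fell by limma were the serine synthesis genes CG6287 (phosphoglycerate dehydrogenase, -0.19) and CG11899 (phosphoserine aminotransferase, -0.28), the alanine-glyoxylate aminotransferase gene *Agxt* (-0.37) and *Prps* (-0.21), whose enzyme makes the sugar phosphate that purine synthesis starts from. The last step of serine synthesis, *aay*, had -0.25 and did not pass (limma adjusted p = 0.0695), with -0.49 at 2 days and -0.01 at 4 weeks. CG6287 had 5533, 5560 and 5483 on HS and 6582, 6323 and 6328 on control at 2 days, and 5820, 5969 and 5534 on HS and 6938, 6432 and 6117 on control at 4 weeks. Its groups did not overlap at either time.

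Picked in the same way among the genes that rose were *wit*, for a type II receptor of the TGF-beta family (0.46), the autophagy gene *Atg17* (0.54), the lysosomal transporter gene *spin* (0.31), the juvenile hormone receptor gene *Met* (0.30) and the fatty acid elongase gene *Elovl7* (0.39). CG15533 (-1.73), which the naming rule took, and CG3376 (-0.48), which was picked after its value was seen, fell. Both are related to acid sphingomyelinases. CG15533 had 439, 104 and 288 on HS and 567, 770 and 651 on control at 2 days, and 282, 229 and 201 on HS and 679, 1536 and 765 on control at 4 weeks, without overlap at either time.

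Genes that passed and lie next to each other on a chromosome formed 17 pairs, of which 15 had the same direction. No such count was made for neighbours over all genes tested. Of the 273 genes that passed 180 were lower, so a shared direction is common among pairs taken from them. The count is therefore a description only. Runs of lower genes were *Mal-A2*, *Mal-A3* and *Mal-A4* (-0.60, -1.19 and -0.99) and CG8997, CG7916, CG7953 and CG7968 (-0.45, -0.53, -0.48 and -0.998). *Npc2g* and *Npc2h* (0.41 and 0.73) were neighbours that rose. Neighbouring genes of a family can share probe sequence, and the part of cross-hybridization was not tested.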
